A study of Mus musculus with 5 samples.

Results

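CpG-poor megabase windows are the stretches of the mouse autosomes in which reduced representation bisulfite sequencing, a method that reads CpG methylation in MspI fragments, found the fewest CpGs. The CpG positions listed in any of 5 libraries were counted in each 1 Mb window of chromosomes 1 to 19 (mm9), and windows at or below the 10th percentile of that count were taken. This gave 245 of 2417 windows, each with 680 listed CpGs or fewer. The choice used the number of listed positions and no methylation value. The windows held 139839 of 4052827 listed CpGs, or 3.45%, in 10.1% of the windows.

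The libraries fall into 3 groups. There were 2 libraries from mice induced to express a dominant negative H3.3 at lysine 36 (K36M), 2 from mice expressing a dominant negative H3.3 at lysine 9 (K9M), and 1 from wild-type mice (WT). Both mutants were induced with 2 mg/ml doxycycline in the drinking water, a treatment that the labels name for the mutants alone, so in a comparison with WT the mutation and the treatment cannot be told apart. Per the labels, the source was hematopoietic stem cells, while the growth protocol names cells sorted from peripheral blood. The data hold no expression, so the cell type could not be checked against markers. The promoter that drives each histone, the strain, the age and the number of mice per library are not given in the sources used here. WT has no replicate, and nothing says whether the paired mutant libraries came from separate animals.

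Cytosine methylation at CpGs is high over most of the mammalian genome and low at CpG islands, which often lie at gene starts. In mouse cells, methylation of H3 lysine 36 recruits the DNA methyltransferases DNMT3A and DNMT3B, and methylation of H3 lysine 9 marks heterochromatin, which is common in gene-poor stretches. A lysine-to-methionine histone acts dominantly by lowering methylation of that lysine on the other H3 in the cell. Megabases with few CpGs tend to be AT-rich, gene-poor and late replicating. None of these features was measured here.

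Levels are relative levels. For each library the methylated count was divided by a second count, the ratio was divided by the library's plateau, and the result was written in percent. The plateau was the median ratio over the most methylated 20% of 1 kb tiles. This was needed because the deposited levels of the libraries differed in unit. At 4540 CpGs of these windows that K9M replicate 2 listed at 98% or above, its median deposited level was 100%, while the medians were 54.0% and 55.4% in the K36M libraries, 57.0% in K9M replicate 1 and 54.5% in WT. The values therefore rest on an inferred unit, described with the processing. A CpG counted as measured where its second count was at least 10 in all 5 libraries. That left 43398 of 1780536 measured autosomal CpGs in the CpG-poor windows.

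The CpG-poor windows were spread over all autosomes, mostly one at a time. Listed CpGs per window ran from 66 to 680 with a median of 592, against 681 to 9239 with a median of 1466.5 in the other 2172 windows. They had 9 to 326 measured CpGs each, with a median of 180. One window had fewer than 20, the minimum for a window value, and 244 remained. Of the listed CpGs, 31.0% were measured in CpG-poor windows and 44.4% in the others. Every autosome had such windows, from 23 on chromosome 1 to 3 on chromosome 19. Chromosome 8 had the highest share, at 16.4% of its windows, and chromosome 7 the lowest, at 4.86%. They formed 172 runs, of which 119 were single windows and 40 were pairs, and 7 were the partial last window of a chromosome.

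Reads per CpG were only slightly lower there. The mean second count per measured CpG was 40.3 and 50.3 in the K36M libraries, 41.2 and 52.4 in the K9M libraries and 53.4 in WT. Set against the other windows of the same library, these were 92.7% and 93.5% in K36M, 93.8% and 92.5% in K9M and 94.8% in WT. The windows held 2.36% ± 0.00649 of the second count in K36M and 2.37% ± 0.0198 in K9M (SD, n = 2 each), against 2.41% in WT. K36M and K9M overlapped on both measures (exact two-sided permutation test, p = 1). WT lay above all 4 mutant libraries on both, with no replicate of its own. The share of the second count was taken over all listed positions, of which these windows held 3.45%. In every library the share of the second count was below that share of positions. Depth over all listed positions was thus lower by more than among measured CpGs. Each library listed 71.4% to 76.4% of the positions in CpG-poor windows and 79.7% to 83.8% of those elsewhere.

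Most CpG-poor windows lay close to the plateau, the level of the most methylated tiles, in every library. The median level over the 244 windows was 88.9% and 90.5% in the K36M libraries, 89.3% and 91.6% in the K9M libraries and 90.4% in WT. In the other windows the medians were 43.6% and 44.0% in K36M, 44.5% and 44.7% in K9M and 45.1% in WT. A level over 80% was found in 70.9% to 72.1% of CpG-poor windows across the 5 libraries, against 15.8% to 16.9% of the other windows. A high level was shared by the windows next in order of listed CpGs. Pooled over CpGs, the 5 libraries read 78.4% to 79.4% in windows with 681 to 822 listed CpGs. They read 79.1% to 80.5% at 823 to 970, against 82.2% to 83.4% in the CpG-poor windows. At 3207 or more they read 28.6% to 30.1%. The spread among the CpG-poor windows was wide in each library, with an SD over windows of 15.9 to 16.3 points. Between replicates the spread was far smaller: the median absolute difference of a CpG-poor window was 2.05 points between the K36M libraries and 1.96 points between the K9M libraries. In the other windows, which held a median of 616 measured CpGs, it was 0.997 and 0.883 points.

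**Figure D1:**
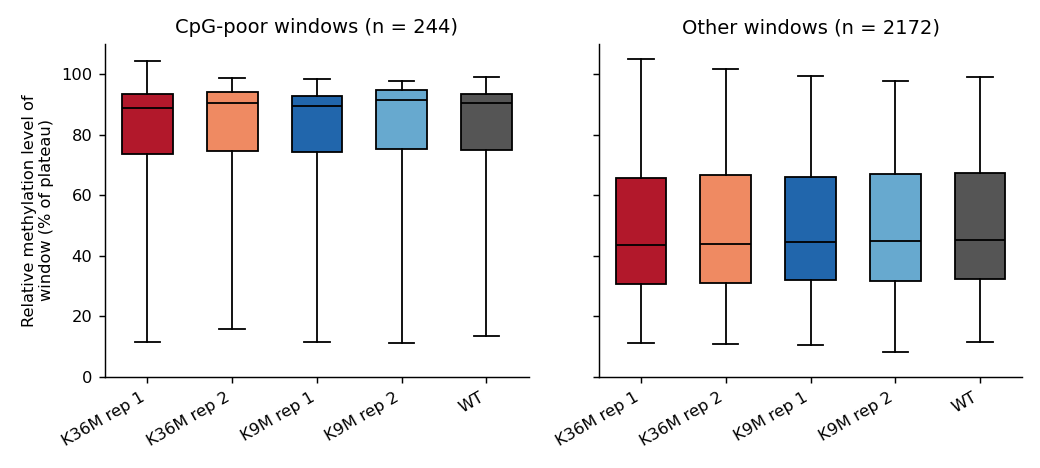
Relative level (percent of plateau, linear axis) of 1 Mb windows in each library, for the 244 CpG-poor and the 2172 other windows. Boxes span the quartiles with the median as a line, and whiskers run from the lowest to the highest window. The CpG-poor boxes lie near the top in all 5 libraries, with medians of 88.9% to 91.6%, and the other windows have medians of 43.6% to 45.1%.

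The makeup of the windows went with their levels. Tiles of 1 kb with at least 3 measured CpGs numbered 4726 in CpG-poor windows, and 3711 of them were sparse, with 3 to 9 CpGs. The remaining 1015 were dense, with 10 or more CpGs, the kind of tile in which CpG islands are found. Dense tiles in CpG-poor windows were over 80% methylated in 83.3% of cases, against 37.9% of dense tiles in the other windows. Dense tiles under 20%, the level usual for a CpG island, made up 14.3% in CpG-poor windows and 54.6% elsewhere. The sparse tiles were over 80% in 88.9% of cases in CpG-poor windows and in 75.9% elsewhere.

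A dense tile under 20% occurred in 81 of the 244 CpG-poor windows, or 33.2%, against 88.0% of the other windows. The 163 windows without one had medians of 91.4% and 92.8% in the K36M libraries, 91.9% and 94.2% in the K9M libraries and 92.6% in WT. The 261 other windows without one were about as high. Their medians were 91.1% and 92.8% in K36M, 91.4% and 93.8% in K9M and 92.3% in WT. CpG-poor windows with at least one such tile had medians of 67.6% and 68.3% in K36M, 66.9% and 68.8% in K9M and 67.1% in WT. Across the 244 windows, Pearson's r between the share of measured CpGs in low dense tiles and the mean level was -0.943. Across the other windows it was -0.960. These values are a description: both quantities come from the same CpGs and libraries.

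**Figure D2:**
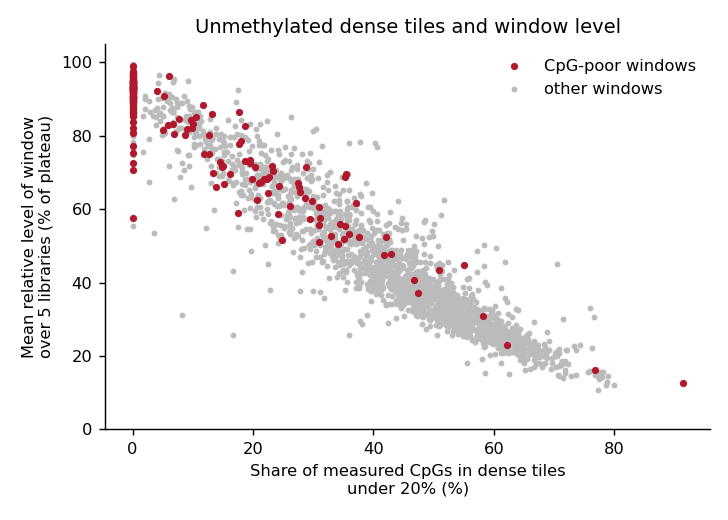
Each point is a 1 Mb window with its share of measured CpGs in dense tiles under 20% (percent, horizontal axis) and its relative level averaged over the 5 libraries (percent of plateau, vertical axis). CpG-poor windows are drawn over the other windows, and most of them sit at a share of 0 and a level near 90%, with a tail that falls as the share grows.

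The extremes show both kinds of window. The lowest level was on chromosome 8 from 20000001 to 21000000, a window of 95 listed and 58 measured CpGs, 53 of them in 2 low dense tiles. It stood at 11.5% and 15.8% in K36M, 11.5% and 11.0% in K9M and 13.4% in WT. The next lowest, on chromosome 16 from 98000001 to 99000000, had 175 of 228 measured CpGs in 6 low dense tiles and read 15.6% and 16.3% in K36M, 15.4% and 16.7% in K9M and 16.3% in WT. Both windows were low in all 5 libraries.

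At the other end, the window on chromosome 2 from 137000001 to 138000000 read 99.5% and 98.8% in K36M, 94.3% and 96.4% in K9M and 98.6% in WT. The window on chromosome 5 from 51000001 to 52000000 read 104% and 96.4% in K36M, 98.5% and 97.0% in K9M and 99.0% in WT. Values over 100% occur because the plateau is a median. Neither of these windows had a dense tile under 20%.

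The longest run, 7 adjacent windows on chromosome 8 from 99000001 to 106000000, held 559 to 678 listed CpGs per window. Its windows without a low dense tile stayed between 91.1% and 98.4% over the 5 libraries. The third window, with 2 such tiles, read 87.5% and 87.5% in K36M, 85.5% and 86.1% in K9M and 85.2% in WT. The last window held 86 of its 184 measured CpGs in 4 such tiles and read 40.6% and 41.8% in K36M, 39.9% and 40.4% in K9M and 40.6% in WT. Levels thus changed abruptly between adjacent windows of one run, and did so in every library.

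At the threshold itself, 6 windows had exactly 680 listed CpGs and 3 had 681. The mean levels of the 6 inside ran from 70.2% to 97.3% in K36M, from 68.6% to 95.6% in K9M and from 70.8% to 95.0% in WT. Those of the 3 just outside ran from 86.3% to 96.7% in K36M, from 88.3% to 95.3% in K9M and from 87.7% to 96.6% in WT.

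K36M against WT addresses how far the lysine 36 mutant departs from normal methylation, and in CpG-poor windows the difference was small. Pooled over the 43398 CpGs, the level was 82.4% and 83.0% in the K36M libraries, a mean of 82.7% ± 0.477 (SD, n = 2), against 83.1% in WT. K36M minus WT was -0.364 points, less than the SD of the K36M libraries. In the other windows the level was 40.6% and 40.4% in K36M, against 41.6% in WT, a difference of -1.12 points with a K36M SD of 0.172. The direction in CpG-poor windows was not stable. With the plateau from the most methylated 40% of tiles the difference was 0.688 points and with a mean of CpG levels 0.472 points, both higher in K36M, and K36M replicate 2 alone gave -0.0274 points.

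K9M, which asks the same of lysine 9, was at 82.2% and 83.4% in CpG-poor windows, a mean of 82.8% ± 0.861 (SD, n = 2), against 83.1% in WT. The difference of -0.276 points was smaller than the SD of the K9M libraries, and K9M replicate 2 lay above WT while replicate 1 lay below it. In the other windows the K9M libraries stood at 41.4% and 41.2%, against 41.6% in WT. K36M minus K9M was -0.0882 points in CpG-poor windows (exact two-sided permutation test over libraries, p = 1). Its sign turned under 5 other settings and without single libraries. In the other windows K36M minus K9M was -0.756 points (p = 0.333, exact permutation test, the smallest that 2 libraries against 2 allow).

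Because CpG-poor windows hold more highly methylated tiles, the comparison was repeated on sparse tiles in classes of level. The class of a tile was set by the libraries outside the contrast, which for K36M against WT means the K9M mean. In sparse tiles at 20% to 80%, K36M was at 67.8% and 67.4% in the 316 tiles of CpG-poor windows, against 68.9% in WT. In the 14567 tiles of the other windows K36M was at 52.6% and 52.4%, against 58.3% in WT. K36M minus WT was thus -1.33 points in CpG-poor windows and -5.80 points elsewhere. The gap between these differences was 4.47 points, with a SD of 0.0773 over the K36M libraries (n = 2). The lone WT library enters both K36M values alike, so a SD over the K36M libraries holds no error of WT.

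In sparse tiles over 80% the pattern had the same order at a smaller size. K36M was at 93.0% and 93.4% in the 3301 tiles of CpG-poor windows, against 93.6% in WT. In the 85083 tiles elsewhere it was at 90.4% and 91.5%, against 93.2% in WT. K36M minus WT was -0.432 points in CpG-poor windows and -2.29 points in the others, a gap of 1.85 points with a SD of 0.616 (n = 2). The difference within CpG-poor windows again changed sign with the plateau from the most methylated 40% of tiles, at 0.743 points, and the gap did not, at 1.97 points. At 20% to 80% that plateau gave -0.598 points in CpG-poor windows and a gap of 4.74 points.

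Sparse tiles of the 2 kinds of window also differed in level within a class, 68.9% against 58.3% in WT at 20% to 80%. When the tiles of the other windows were weighted to the level and CpG number of those in CpG-poor windows, their difference was -5.78 points at 20% to 80% and -2.35 points over 80%, and the gaps were 4.45 and 1.92 points. The weighting was chosen after the data were seen. Counts per tile were similar, with a median summed second count per library of 137.6 in sparse tiles of CpG-poor windows and 152.8 elsewhere.

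Dense tiles showed the same order with fewer members. At 20% to 80%, the 28 dense tiles of CpG-poor windows had a difference of -1.81 points in K36M replicate 1 and 0.629 points in replicate 2 from WT, against -4.53 and -4.81 points in 2825 tiles elsewhere. Over 80%, 843 dense tiles of CpG-poor windows had differences of 0.0587 and 1.36 points, against -1.49 and 0.157 points elsewhere. The replicates were on opposite sides of WT in 2 of these 4 sets. Under 20%, the K36M level was 3.20% ± 0.191 (SD, n = 2) in CpG-poor windows, against 2.92% in WT.

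K36M and K9M could be compared with both sides replicated, with classes set by WT. For sparse tiles at 20% to 80%, the level in CpG-poor windows minus that in other windows was 12.5 and 13.1 points in the K36M libraries and 7.94 and 7.95 points in the K9M libraries. The 4.87 points between the means had p = 0.333 (exact two-sided permutation test, the smallest possible). Over 80% it was 2.36 and 1.44 points in K36M and -0.136 and -1.05 points in K9M, 2.49 points apart with the same p of 0.333 by the exact test. Both K36M libraries lay above both K9M libraries in each class. Within CpG-poor windows alone, K36M minus K9M was -2.79 points at 20% to 80% and -0.830 points over 80%. The first value was -0.669 points without K9M replicate 2, -4.91 points without K9M replicate 1 and -1.26 points with the plateau from the most methylated 40% of tiles. The second turned to 1.01 points with that plateau and to 0.330 points without K9M replicate 2.

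K9M against WT differed little between the 2 kinds of window. With classes set by K36M, the K9M libraries were -0.988 and 4.20 points from WT in sparse tiles of CpG-poor windows at 20% to 80%, and -0.298 and 4.65 points from it elsewhere. Over 80% the differences were -0.694 and 1.48 points in CpG-poor windows and -0.459 and 2.53 points elsewhere. The gap was negative in both K9M libraries, opposite in sign to that of K36M: -0.691 and -0.445 points at 20% to 80%, a mean of -0.568, and -0.235 and -1.05 points over 80%, a mean of -0.643. Replicates 1 and 2 lay on opposite sides of WT in both kinds of window, so the mean of K9M gives no direction against WT. K9M replicate 2 is also the library whose deposited levels were in the other unit, and its part in this spread was not tested.

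The loss in K36M grew with the number of CpGs listed per window. Windows were put into 10 bins of nearly equal size by listed CpGs, from bin 1, the CpG-poor windows, to bin 10, with 3207 to 9239 listed CpGs. In sparse tiles at 20% to 80%, K36M minus WT was -1.33 points in bin 1, -1.70 in bin 2, -2.26 in bin 3, -4.60 in bin 6 and -6.93 in bin 10. Both K36M libraries followed it, with -1.17 and -1.49 points in bin 1 and -6.75 and -7.12 points in bin 10. Over 80%, the difference was -0.432 points in bin 1, -0.319 in bin 2 and -3.26 in bin 10. The CpG-poor windows thus lay at one end of a gradual change at 20% to 80%, and bins 1 and 2 were close to each other in both classes. With the plateau from the most methylated 40% of tiles, bins 1 and 2 over 80% turned positive, at 0.743 and 0.866 points, and bin 10 stayed at -2.28 points.

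**Figure D3:**
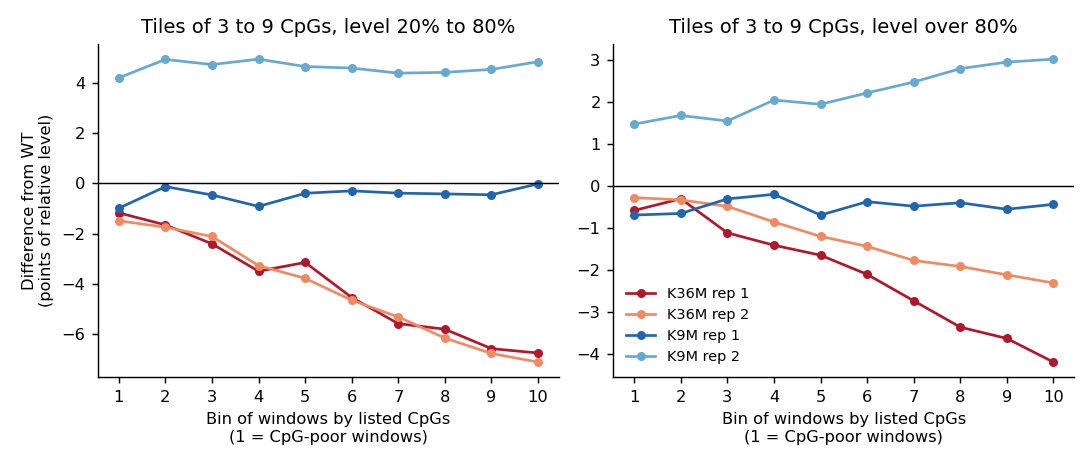
Difference of each mutant library from WT (points of relative level) in tiles of 3 to 9 CpGs, in 10 bins of windows in order of listed CpGs, with bin 1 the CpG-poor windows. The left panel shows tiles at 20% to 80% and the right panel tiles over 80%. Both K36M lines are lower in bin 10 than in bin 1, though replicate 1 does not fall at every step. Their mean goes from -1.33 to -6.93 points on the left and from -0.432 to -3.26 points on the right. On the right, bins 1 and 2 turn positive with the plateau from the most methylated 40% of tiles. K9M replicates 1 and 2 stay on opposite sides of 0.

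K9M did not follow that course at 20% to 80%, where replicate 1 was at -0.988 points in bin 1 and -0.0190 in bin 10, and replicate 2 at 4.20 and 4.84 points. Over 80%, K9M replicate 2 was at 1.48 points in bin 1 and 3.03 points in bin 10, while replicate 1 was at -0.694 and -0.438 points.

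The difference also changed with distance along the chromosome. At 20% to 80%, K36M minus WT was -1.33 points inside CpG-poor windows, -3.99 points in windows directly beside one, -5.46 points at a distance of 2 windows and -6.32 points at 3 to 5 windows. Farther away it was -6.37 points at 6 to 10 windows and -5.48 points beyond 10. Over 80%, the same steps gave -0.432, -1.17, -2.02, -2.43, -2.35 and -2.51 points. The listed CpGs per window changed along with distance, from a median of 592 inside to 998 beside, 1533 at 3 to 5 windows, 1525.5 at 6 to 10 and 1892 beyond 10. Up to 5 windows, distance and CpG number moved together and cannot be told apart. Beyond 10 windows the listed CpGs were highest, while the difference at 20% to 80% was smaller than at 3 to 10 windows.

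**Figure D4:**
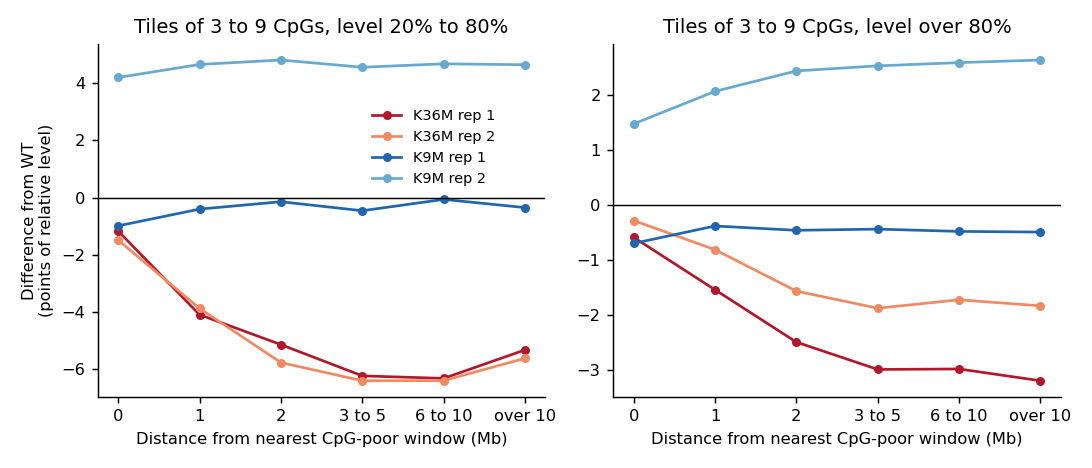
Difference of each mutant library from WT (points of relative level) in tiles of 3 to 9 CpGs, by distance in 1 Mb windows from the nearest CpG-poor window, where 0 is inside one. The left panel shows tiles at 20% to 80% and the right panel tiles over 80%. K36M is nearest to WT inside CpG-poor windows, at -1.33 and -0.432 points, the second of which turns positive with the plateau from the most methylated 40% of tiles. It reaches -6.32 and -2.43 points at 3 to 5 windows.

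By chromosome, both K36M libraries had a smaller loss inside CpG-poor windows than outside them on 18 of 19 autosomes at 20% to 80% and on 17 of 19 over 80%. Outside CpG-poor windows both K36M libraries lay below WT on 19 of 19 autosomes in each class, and inside them on 9 of 19 in each class. The values per chromosome rest on 7 to 28 tiles at 20% to 80% and on 43 to 332 tiles over 80%. Chromosome 12 was the exception at 20% to 80%, with -5.77 and -2.65 points inside on 20 tiles, against -5.25 and -5.32 points outside. Over 80%, chromosome 19 had a larger loss inside, at -4.29 and -5.72 points on 43 tiles, against -3.33 and -2.17 points outside. On chromosome 7 the K36M libraries were split, at -2.89 and -0.300 points inside, against -2.69 and -1.42 points outside. These chromosomes were named after their values were seen.

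Single windows gave the same picture for sparse tiles. Among windows with at least 10 sparse tiles, the 2 K36M libraries were both under WT in 80 of 214 CpG-poor windows, or 37.4%, against 1532 of 2167 other windows, or 70.7%. Both lay above WT in 25.7% of CpG-poor windows and 9.28% of the others. The median difference of K36M from WT was -0.235 points over the CpG-poor windows and -2.17 points over the others. For K9M both libraries lay below WT in 14.5% of CpG-poor windows and 5.91% of the others, and above it in 36.0% and 40.3%. WT is a single library, so an error in it moves all of these shares together. The CpG-poor windows were also measured less precisely, so the shares of the 2 kinds of window are not fully comparable. As whole windows they held a median of 180 measured CpGs, against 616. The median absolute difference between the K36M libraries was 2.05 points, against 0.997.

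No CpG-poor window as a whole was called different. Windows with at least 20 measured CpGs were tested with limma over all 2416 autosomal windows, at an adjusted p under 0.05. CpG-poor windows had a median of 180 measured CpGs, against 616 in the others, and varied more between replicates. A difference of a given size was therefore harder to call in them. For K36M against WT, 2 of all windows were called lower, or 0.0828%, and 0 higher, with 0 calls in either direction among CpG-poor windows, where an unadjusted p under 0.05 occurred for 0 lower and 2 higher of 244 windows, against 363 lower and 7 higher of all 2416. The logistic model on summed counts also called 0. For K9M against WT, 1 of all windows was called lower, or 0.0414%, and 0 of the CpG-poor windows, none of which had an unadjusted p under 0.05, against 95 lower and 14 higher of all windows. For K36M against K9M, 72 of all windows were called lower, or 2.98%, and 6 higher, or 0.248%, with 0 calls among CpG-poor windows and 5 lower and 2 higher at an unadjusted p under 0.05, against 354 lower and 32 higher of all windows.

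The CpG-poor windows with the smallest p were as follows. On chromosome 9 from 28000001 to 29000000, the level was 60.7% and 61.8% in K36M, against 55.8% in WT (difference 5.49 ± 2.39 points, SE, limma adjusted p = 0.316). On chromosome 1 from 101000001 to 102000000, K36M was at 93.6% and 95.2%, against 89.0% in WT (5.41 ± 2.40 points, SE, limma adjusted p = 0.324). Both K36M libraries stood above WT and above both K9M libraries in these windows. K9M read 57.4% and 58.4% in the first and 90.3% and 91.2% in the second.

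For K9M against WT, the window on chromosome 5 from 55000001 to 56000000 was at 85.6% and 80.2% in K9M, against 88.4% in WT, and the window on chromosome 4 from 68000001 to 69000000 at 81.6% and 82.8%, against 86.5% (limma adjusted p = 1.00 for both). For K36M against K9M, the window on chromosome 1 from 195000001 to 196000000 was at 71.4% and 72.8% in K36M and 77.2% and 79.2% in K9M, with 76.0% in WT (difference -6.09 ± 1.99 points, SE, limma adjusted p = 0.152). The window on chromosome 8 from 56000001 to 57000000, with 47 measured CpGs, was at 83.4% and 87.1% in K36M and 89.0% and 94.8% in K9M, with 87.8% in WT (limma adjusted p = 0.168). The difference in that last window depended on the K9M library. It was -9.58 points without K9M replicate 1 and -3.80 points without K9M replicate 2, each leaving a single K9M library.

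Few tiles in CpG-poor windows were called. Tiles were tested with a logistic model of both counts over all 152678 autosomal tiles and called at an adjusted p under 0.05 and a difference of at least 10 points. Lower in K36M than in WT were 0.439% of all tiles and 1 of the 4726 tiles in CpG-poor windows, or 0.0212%. Higher in K36M were 0.0118% of all tiles and 0 in CpG-poor windows. At an unadjusted p under 0.05 and 10 points, 0.275% of tiles in CpG-poor windows were lower in K36M, against 2.63% in other windows, and 0.339% were higher, against 0.293%. edgeR's quasi-likelihood test called 5 tiles lower and 0 higher in CpG-poor windows, against 1.02% and 0.0432% of all tiles.

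K9M was lower than WT in 0.0242% of all tiles and in 0 tiles of CpG-poor windows by the logistic model, with 17 lower, or 0.360%, at an unadjusted p under 0.05 and 10 points, against 0.576% of all tiles. At that p, 7 were higher, or 0.148%, against 0.775% of all tiles. edgeR called 1 tile there lower, against 0.0884% of all tiles. K9M was higher in 0.0458% of all tiles and in 1 tile of CpG-poor windows, and edgeR called 2 higher there, against 0.151% of all tiles. K36M was lower than K9M in 1.16% of all tiles and in 3 of CpG-poor windows, or 0.0635%, and higher in 0.0668% of all and in 1 of CpG-poor windows, or 0.0212%. edgeR called 7 lower and 1 higher in CpG-poor windows, against 1.99% and 0.134% of all tiles.

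These calls came from 4 tiles. The tile on chromosome 12 from 42041001 to 42042000, with 3 measured CpGs, was at 5.19% and 8.36% in K36M, at 23.2% and 39.4% in K9M and at 43.1% in WT. The WT value rests on 76 methylated counts over a second count of 143. At the level of the tile, the K9M libraries lay between K36M and WT and apart from each other. K36M minus WT was -36.3 points (logistic model, adjusted p = 0.0105) and K36M minus K9M -24.5 points (logistic model, adjusted p = 0.00981). Over its CpGs, K36M ran from 0% to 6.86% in replicate 1 and from 7.22% to 9.53% in replicate 2, K9M from 10.8% to 30.9% and from 20.4% to 47.9%, and WT from 19.6% to 52.4%. Both K36M libraries were below the K9M libraries and WT at each CpG.

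The tile on chromosome 9 from 112021001 to 112022000 was the one with the most CpGs, at 17. It read 9.88% and 7.91% in K36M, 49.4% and 50.2% in K9M and 14.2% in WT. Both K9M libraries were high and lay close together, and K36M and WT were both low. K9M minus WT was 35.6 points (logistic model, adjusted p = 0.00117), and K36M minus K9M was -40.9 points (logistic model, adjusted p = 2.22e-05). K36M against WT was not called there (logistic model, adjusted p = 0.230). Over its CpGs, K36M ran from 0% to 34.9% in replicate 1 and from 0% to 24.7% in replicate 2, K9M from 21.5% to 74.8% and from 19.1% to 78.6%, and WT from 1.84% to 33.3%. Both K9M libraries were above the other 3 at all 17 CpGs.

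**Figure D5:**
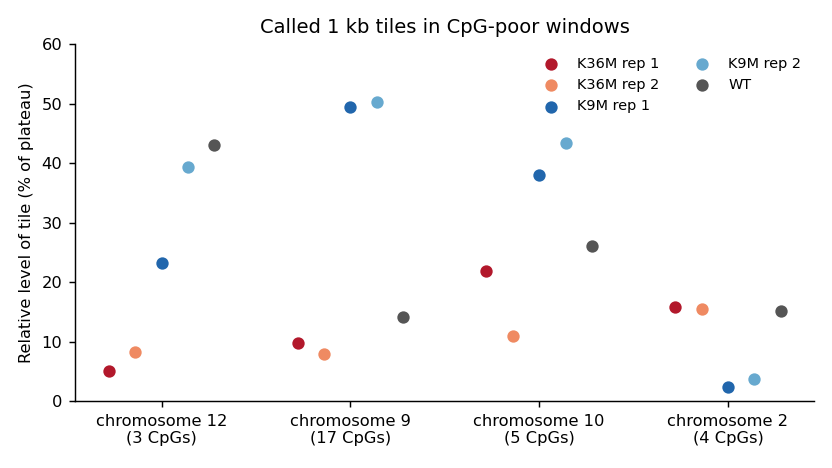
Relative level (percent of plateau) of the 4 called tiles of CpG-poor windows, with a point per library and no error bars. In the tile of 17 CpGs on chromosome 9 both K9M libraries stand at 49.4% and 50.2%, against 14.2% in WT, with K36M below WT at 9.88% and 7.91%. In the tile of 3 CpGs on chromosome 12 both K36M libraries stand at 5.19% and 8.36%, against 43.1% in WT.

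The other 2 tiles were called between the mutants and not against WT. The tile on chromosome 10 from 37117001 to 37118000, with 5 CpGs, was at 22.0% and 11.0% in K36M, at 38.1% and 43.4% in K9M and at 26.0% in WT, with K36M minus K9M at -24.3 points (logistic model, adjusted p = 0.0190). The tile on chromosome 2 from 96158001 to 96159000, with 4 CpGs, was at 15.9% and 15.4% in K36M, at 2.43% and 3.82% in K9M and at 15.2% in WT, with K36M minus K9M at 12.6 points (logistic model, adjusted p = 0.00961). WT fell between the mutants in the first and beside K36M in the second. In the second, both K9M libraries lay below WT, without a call (logistic model, adjusted p = 0.139).

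All of these tiles were also called by edgeR, and none was by limma on relative levels. Leaving out any 1 of the 4 mutant libraries ended every one of these calls except K36M against K9M on chromosome 9, which was kept in all 4 such fits. Those fits have 1 residual degree of freedom in place of 2. They also called fewer of all tiles, with 0 to 196 lower in K36M than in WT in place of 671.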

How the data were processed

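Methylation was measured by reduced representation bisulfite sequencing in 5 libraries. Per the labels' protocols, DNA was cut with MspI and bisulfite converted. Per the submitters' processing notes, the tools were cutadapt and BSMAP and the build mm9, with no versions. Each deposited file lists CpGs with a fraction (the level) and a count (the total), made by the authors before deposit. Filters and strand merging by the authors are not given in the sources used here.

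The methylated count was the level times the total, rounded. In 4 libraries the total appears to be the sum of the methylated count and a second count, while in K9M replicate 2 it appears to be the second count alone; this was inferred from the values. All products were whole within 0.01 in those 4 libraries and 89.2% were in K9M replicate 2, over totals up to 1000. Second counts over autosomes ran from 84095188 to 108775307 per library. Plateau ratios were 1.22 and 1.26 in K36M, 1.37 and 0.954 in K9M and 1.23 in WT. PCR duplicates are not marked, so counts are not independent molecules and counting error alone understates the error.

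Tiles with at least 3 measured CpGs were fitted over all 5 libraries with a quasi-binomial logistic model, with the log plateau as offset and the dispersion moderated with limma 3.58.1 and held at 1 or above, and an F test. Windows were fitted with limma. Benjamini-Hochberg adjustment covered all autosomal tiles or windows. edgeR 4.0.16 was an alternative, in R 4.3.3. The fits were tested on simulated data. A p-value measures the spread between these libraries, which may be technical. Single values were compared with exact permutation tests over libraries.

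The windows and classes were chosen with earlier results of these data known. Named windows were the 2 with the smallest p per contrast, the 2 lowest and 2 highest in level, the longest run and those at the threshold. Named tiles were the called ones with both replicates of a mutant on one side of the other group. No sequence or gene name is given, since no mm9 genome or annotation was used here.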

Additional observations from a re-analysis of the deposited data

How the results depend on the processing

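The gap between CpG-poor and other windows in K36M minus WT kept its sign under every alternative run on it. Pooled, it was 0.754 points, 1.46 with a mean of CpG levels and 0.295 to 1.21 without one replicate. In sparse tiles at 20% to 80% it was 4.47 points, 4.96 and 4.80 with a minimum second count of 5 and 20, 4.74 with the plateau from 40% of tiles and 3.54 to 4.67 without one replicate. Over 80% it was 1.42 to 2.29 without one replicate. The difference inside CpG-poor windows did not hold its direction. Pooled, K36M minus WT was -0.852 with a minimum of 20, 0.688 with the plateau from 40% of tiles, 0.472 with a mean of CpG levels and -0.701 to -0.0274 without one replicate. In sparse tiles it was -0.873, -1.001 and -0.598 points at 20% to 80% with a minimum of 5, of 20 and the 40% plateau (-1.56 to -1.01 without one replicate), and 0.743 over 80% with that plateau (-0.584 to -0.279 without one replicate). K36M minus K9M, pooled, turned to 0.0969 with a minimum of 5, 1.61 with the 40% plateau, 0.000892 with the plateau from outside CpG-poor windows, 0.0790 at the 20th percentile and 0.0684 with a mean of CpG levels, and ran from -0.697 to 0.521 without one replicate. Its gap ran from -0.0220 to 1.36 without one replicate. In sparse tiles of CpG-poor windows it turned to 1.01 over 80% with the 40% plateau, and ran from -1.99 to 0.330 over 80% and from -4.91 to -0.669 at 20% to 80% without one replicate. Its gaps in sparse tiles ran from 4.57 to 5.18 at 20% to 80% and from 2.03 to 2.95 over 80% without one replicate. K9M minus WT without one replicate ran from -0.885 to 0.333 pooled, from -0.605 to 0.776 for the gap, and in sparse tiles of CpG-poor windows from -0.988 to 4.20 at 20% to 80% and from -0.694 to 1.48 over 80%. Its sparse-tile gap at 20% to 80% was -0.371 and -0.332 with a minimum of 5 and 20, -1.46 with the 40% plateau, -0.798 with weighted tiles and -1.39 to -0.298 without one replicate, and over 80% -1.05 to -0.235 without one replicate. Levels as deposited gave 15.7 points for K9M minus WT in CpG-poor windows, 11.9 for its gap and -11.4 for the gap of K36M minus K9M, since K9M replicate 2 is then in another unit. The cause of the other moves was not tested.

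Calls in CpG-poor tiles are given beside those over all tiles under the same setting. The CpG-poor tiles numbered 4726, or 2056 at the 5th percentile, 11004 at the 20th percentile and 2459 with at least 5 CpGs. The replicate block called 0 tiles in any contrast, and limma 0 in CpG-poor windows and 1 of all, lower in K36M than in K9M. Lower in K36M than in WT were 5 by edgeR (1554 of all), 5 at the 20th percentile (671 of all) and 0 in tiles with at least 5 CpGs (699 of all). Lower in K9M than in WT was 1 by edgeR (135 of all) and 1 with robust moderation (102 of all). Higher in K9M than in WT were 2 by edgeR (231 of all) and 0 at the 5th percentile (70 of all). Lower in K36M than in K9M were 7 by edgeR (3031 of all), 1 at the 5th and 10 at the 20th percentile (1769 of all) and 5 with robust moderation (2456 of all). Higher in K36M than in K9M were 6 at the 20th percentile (102 of all), 0 in tiles with at least 5 CpGs (103 of all) and 2 with no minimum difference (177 of all). Without one replicate, 0 CpG-poor tiles were called in each direction, and 1 lower in K36M than in K9M (36 to 496 of all). Lower in K36M than in WT were then 0 of all tiles without either K36M replicate, 196 without K9M replicate 1 and 164 without K9M replicate 2. Of CpG-poor windows, 1 of 485 was called lower in K36M than in WT at the 20th percentile (2 of all). With a minimum of 5, 1 was higher in K9M than in WT (1 of all) and 1 lower in K36M than in K9M (94 of all). Without one replicate, 0 to 3 were lower in K36M than in K9M, the 3 being without K9M replicate 1 (100 of all). The replicate block left 0 windows called. Replicate numbers are shared by the mutants alone. The difference between replicates 1 and 2 correlated across tiles at 0.0758 between K36M and K9M. A weak correlation over noisy tiles cannot exclude a batch shared by replicates of one number. Robust moderation, weighted tiles and leaving out the last window of each chromosome were chosen after seeing the data. The lone WT library, 2 residual degrees of freedom, few measured CpGs per CpG-poor window and 316 sparse tiles at 20% to 80% limit what could be called.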
